A study of Komagataella phaffii with 12 samples.

Results

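Interior regions of the genome that were called open in the Δflo8 strain and in no wild-type library were examined in the yeast Komagataella phaffii. Open chromatin was measured by FAIRE-Seq, which sequences the DNA that stays in the aqueous phase when sheared, formaldehyde-fixed chromatin is extracted with phenol, mostly DNA with few bound nucleosomes. Nuclear peaks of the 10 FAIRE lists that shared 1 bp or more were merged into 665 loci. A locus was kept if it had a peak in at least 1 Δflo8 list, a peak in none of the 6 WT lists, and a midpoint more than 100 kb from a chromosome end. This gave 165 Δflo8-only loci among the 624 interior loci. Of the interior loci, 514 had a Δflo8 peak, and the Δflo8-only loci made up 32.1% of these by the rule alone. The other 349 also had a peak in at least 1 WT list and are called shared loci here, and 110 interior loci had WT peaks only.

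All libraries came from glucose-limited chemostats of the strain CBS7435. The WT and the Δflo8 strain, in which the end of the FLO8 promoter and the start of its reading frame are removed, were sampled at steady state, 5 residence times after each change. Growth rates were 0.1 per hour (called fast), then 0.05 per hour (slow), then 0.1 per hour once more (switchback). The WT had 2 libraries per stage. Of the Δflo8 libraries, 2 were fast, 1 was slow and 1 was switchback. According to the methods a culture passed through the stages in turn, and since no label names the culture or clone behind a library, libraries of different stages may share one.

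Flo8 is a transcriptional activator. In Saccharomyces cerevisiae it switches on flocculin (FLO) genes, whose cell wall proteins let cells adhere to each other and to surfaces, and it is needed for filamentous growth. FAIRE peaks in yeasts typically mark promoters, where nucleosomes are depleted and regulators bind. The loci below are given by position on the CBS7435 genome, and genes were not assigned to them here.

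The 4 Δflo8 lists held 149 to 509 nuclear peaks with a median width of 223 to 237 bp, and the 6 WT lists held 199 to 382 with a median width of 919 to 1057 bp. The Δflo8 lists are in the 10-column format of MACS2 and the WT lists in a 5-column format with MACS version 1 names. Strain and list format therefore cannot be told apart in what follows. Without read counts in the lists, the depth of the libraries is unknown, and absence from a list says that no peak was called, not that the chromatin was closed. Intervals on shares are 95% Clopper-Pearson intervals that cover counting error over loci alone.

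The rule has 2 thresholds. At the 100 kb margin, the Δflo8-only locus just inside lay at chr2:102619-102826, with its midpoint 102722 bp from the end, and the next at chr3:108548-108751, 108650 bp from the end. Just outside were chr1:2797432-2797624, 93662 bp from the end, and chr4:49247-49463, 49355 bp from the end. At the overlap threshold, the nearest Δflo8-only loci were 15 and 244 bp away from a WT peak, while the smallest overlap at a shared locus was 174 bp, and at all 349 shared loci a Δflo8 peak lay wholly inside a WT peak. Merging peaks within 200 bp left 164 loci.

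The first question was at which growth stages the Δflo8-only loci were open. They were seen at the fast and slow stages and almost never after the switch back. Fast replicate 1 held 121 of the 165 (73.3%, interval 65.9 to 79.9), against 80% of all interior Δflo8 loci. Fast replicate 2 held 64 (38.8%, 31.3 to 46.7), against 62.1%, and the slow library held 123 (74.5%, 67.2 to 81.0), against 88.3%. The switchback library held 1 (0.606%, 0.0153 to 3.33), against 26.1%. Shares in the 4 lists were thus all below those of the interior Δflo8 loci as a whole, by the widest ratio in the switchback list. That list was also the shortest, with 149 nuclear peaks, and it is a single library, so that stage and library cannot be told apart.

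**Figure D1:**
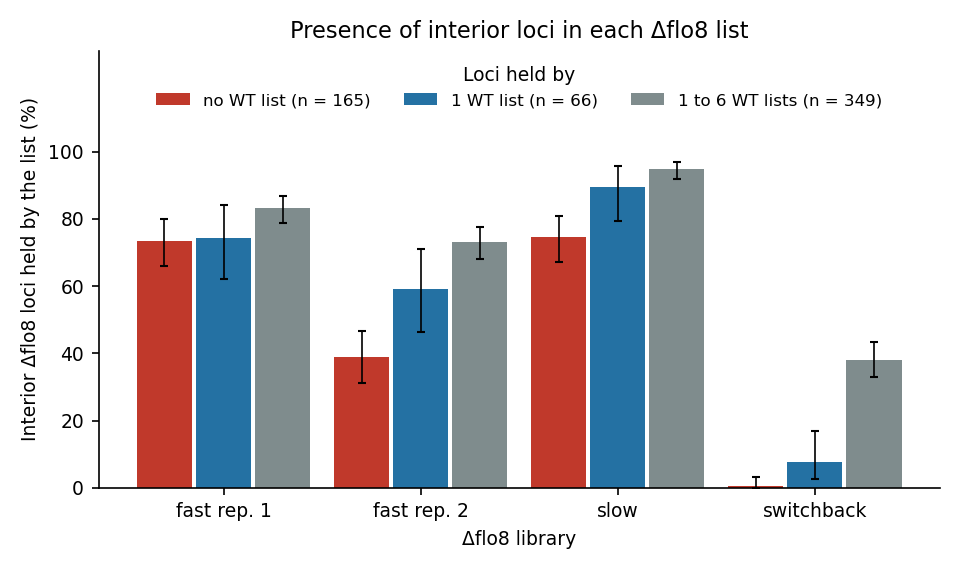
Share of interior loci held by each Δflo8 list (percent), for the 165 Δflo8-only loci, the 66 loci that 1 WT list also held, and all 349 shared loci. Bars are shares and whiskers are 95% Clopper-Pearson intervals over loci; the Δflo8-only loci stand at 73.3%, 38.8%, 74.5% and 0.606% from left to right, and the shared loci at 83.1%, 73.1%, 94.8% and 38.1%.

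The switchback count was next set beside equal numbers of peaks. In the first 149 nuclear peaks of fast replicate 1, fast replicate 2 and the slow library, by rank of the p-value, there were 8, 12 and 11 peaks at Δflo8-only loci. The 149 peaks of the switchback list had 1. This comparison keeps the 165 loci, which were set by the full WT lists. When all 10 lists were cut to their 149 strongest nuclear peaks and the rule was applied anew, 40 of the 99 loci obtained were in the switchback list and 22 were in all 4 lists. Of these 40, 1 overlapped the 165, and the others had a WT peak in the full lists. With the higher-scoring 50% of each list, 16 of 145 were in the switchback list. The near absence at switchback was therefore seen for loci missing from the full WT lists, and the counts were higher for loci missing from shortened ones. The share of all interior Δflo8 loci in the switchback list was not computed under these cuts. The cut to 149 peaks left the switchback list whole and shortened the others, so the counts shift at least partly by construction. Presence in the switchback list was then compared at similar rank, for loci chosen from fast replicate 1 alone. Each list was divided by rank into 4 bands of equal size, band 1 being the strongest. In bands 2 to 4, 1 of 117 Δflo8-only loci was also found at switchback (0.855%, 0.0216 to 4.67), whereas 46 of 185 shared loci were (24.9%, 18.8 to 31.7). Their median ranks of 321 and 247 still differed. Shared loci are also merged over the wider WT peaks, so Δflo8 peaks that do not overlap each other can count as the same locus. In band 2, where the median ranks of 186.5 and 172.5 were closer, the counts were 1 of 26 (3.85%, 0.0973 to 19.6) and 30 of 82 (36.6%, 26.2 to 48.0). Loci that 1 WT list also held were in between, with 3 of 45 in bands 2 to 4 (6.67%, 1.40 to 18.3), an interval that overlaps that of the Δflo8-only loci.

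By combination of lists, the most frequent pattern was presence in both fast libraries and the slow one, with 50 of the 165 loci (30.3%). This was near the 32.1% of shared loci with that pattern. A further 41 (24.8%) were found in the slow library alone, against 15.2% of shared loci. Fast replicate 1 alone held 31 (18.8%, against 3.44%), and fast replicate 2 alone held 1. Fast replicate 1 and slow together held 29 (17.6%, against 8.02%). The 2 fast replicates without the slow library held 10 (6.06%, against 1.43%), and fast replicate 2 and slow held 2 (1.21%, against 1.72%). In all, 92 loci were held by more than 1 list (55.8%, 47.8 to 63.5) and 73 by exactly 1 list (44.2%, 36.5 to 52.2), against 26.8% of all interior Δflo8 loci. The 41 loci of the slow library alone have to be read beside the 31 of fast replicate 1 alone, since that number arose from 1 of 2 replicates of the same stage. Without fast replicate 1, the loci held by the slow list alone numbered 70 and the share held by more than 1 list was 39.6%. A locus in all 4 lists occurred once, against 25.7% of all interior Δflo8 loci. This count rests on the switchback library: without it, 51 loci were held by all 3 remaining lists. It was 4 without WT switchback replicate 1 and 2 without WT slow replicate 2, since loci held by that WT library alone then enter the set.

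The only Δflo8-only locus open in every Δflo8 library lay at chr1:1839423-1839657. Its fold enrichment over the control, a ratio given with the peak calls, was 3.19 in fast replicate 1, 3.16 in fast replicate 2, 3.61 in the slow library and 3.18 in the switchback library. The −log10 p of the peak was 71.3, 70.7, 99.8 and 58.1 in the same order. The slow library was thus above the other three, whose folds lay close together. The locus ranked 205 of 463, 102 of 356, 81 of 509 and 64 of 149 nuclear peaks in these lists. It was 503 bp from the nearest WT peak, which belonged to a locus held by 2 WT and 2 Δflo8 lists.

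A second locus less than 5 kb further along, at chr1:1843007-1843227, had the highest fold of all Δflo8-only loci in any library. Its fold was 4.08 and 3.18 in the fast replicates and 3.07 at the slow stage, with ranks of 37, 105 and 211. The high value belonged to fast replicate 1 alone, and its replicate was close to the slow library.

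Another 5 loci complete the 6 with the highest mean fold among those held by both fast libraries and the slow one. At chr2:945387-945622 the fold was 3.23 and 3.11 in the fast replicates and 3.94 at the slow stage. The slow value lay above both replicates and ranked 35 of 509, the best rank of any Δflo8-only locus in any list. At chr2:2124590-2124867 the order was the opposite, with 3.87 and 3.30 in the fast replicates and 2.93 in the slow library, where its rank was 319. At chr1:1930014-1930261 the fold was 3.64, 3.07 and 3.51, so that the slow value lay between the replicates. At chr1:2180113-2180340 it was 3.36, 3.28 and 3.55, and at chr1:2202153-2202399 it was 3.83, 3.23 and 3.17. The slow value was above both fast values at the former and below both at the latter. The nearest WT peak was 582 bp from chr1:2180113-2180340 and 15085 bp from chr2:2124590-2124867.

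Among loci of the slow library alone, the highest folds were 3.48 at chr1:321942-322137 (rank 110) and 3.39 at chr4:1054686-1054897 (rank 121). Both lay near a WT peak, at 1010 and 1938 bp. Of the loci seen in fast replicate 1 alone, chr1:809629-809844 had a fold of 3.04 (rank 266) and chr1:205485-205682 one of 2.96 (rank 324). The 1 locus of fast replicate 2 alone, at chr3:1405955-1406151, had a fold of 2.85 (rank 207). These loci of the slow library thus stood in band 1 of their list, and those of the fast replicates in band 3.

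Both fast replicates and no other list held chr1:888940-889138, with folds of 3.22 and 3.43, and chr2:482475-482676, with 3.07 and 2.89. The former ranked 67 of 356 in fast replicate 2, the best rank of a Δflo8-only locus in that list. Fast replicate 1 and slow held chr1:222107-222327 with 3.42 and 3.10, and chr1:1666045-1666257 with 3.07 and 3.43. Fast replicate 2 and slow held chr2:1694402-1694597 with 2.77 and 3.20, and chr1:652318-652518 with 2.66 and 2.75. The slow library was higher at both loci it shared with fast replicate 2, and in the other combinations the order of the libraries differed between the loci.

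Fold enrichment and rank are from the same peak calls that chose the loci, and are given as a description. The median fold at Δflo8-only loci was 2.94 in fast replicate 1 (range 2.24 to 4.08), 2.79 in fast replicate 2 (2.23 to 3.43) and 2.91 in the slow library (2.17 to 3.94). At shared loci the medians were 3.33, 3.02 and 3.11, with maxima of 5.13, 4.52 and 4.93. The Δflo8-only loci thus occupied the lower and middle part of the range, and their lowest folds were not below those of shared loci in fast replicate 1, fast replicate 2 or the slow library, where these went down to 2.08, 2.19 and 1.91. The −log10 p of their peaks was 26.5 or higher in every list. All of them therefore passed the highest of the Δflo8 list minima, 22.3, and the count of 165 was the same with this minimum applied to the 4 Δflo8 lists. The WT lists have a score without a p-value beside it. Its minima were 150 to 154, against 166 to 223 for the score of the Δflo8 lists. Whether the scores of the strains are on the same scale was not examined, and the WT lists were not put on a common minimum.

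**Figure D2:**
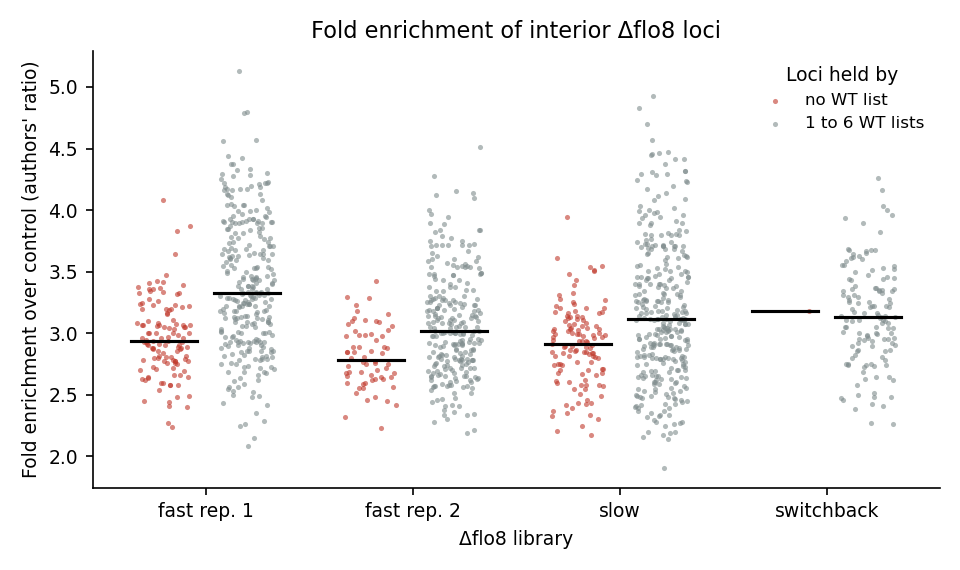
Fold enrichment over the control at interior loci in each Δflo8 library, with 1 point per locus and list (the strongest peak) and a black line at the median. Δflo8-only loci have medians of 2.94, 2.79 and 2.91 in the first 3 libraries, below the 3.33, 3.02 and 3.11 of shared loci, with overlapping ranges; the switchback library has 1 point, at 3.18.

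The fold also differed between the combinations of lists. Averaged over the lists that held a locus, the median was 2.97 at the 50 loci of both fast libraries and the slow one (range 2.61 to 3.44), 2.89 at the 29 of fast replicate 1 and slow, and 2.70 at the 10 of both fast replicates. It was 2.87 at the 41 loci of the slow library alone (2.17 to 3.48) and 2.78 at the 31 of fast replicate 1 alone (2.27 to 3.04). The 2 loci of fast replicate 2 and slow and the 1 of fast replicate 2 alone both stood at 2.85. The averaged fold thus did not follow the number of lists step by step. Among combinations of more than 1 locus it was highest in the 3-list set. The average at loci of both fast replicates was below that of single lists, with wide overlap throughout. These averages also depend on which libraries held a locus. Fast replicate 2 had the lower fold at 54 of the 61 Δflo8-only loci that both fast replicates held, which lowers averages that include it. Shared loci with the same combination of lists had medians of 3.00 (112 loci), 2.86 (28 loci), 2.66 (5 loci), 2.65 (53 loci) and 2.75 (12 loci). Within a combination the Δflo8-only loci were therefore near the shared ones, except in the slow library alone, where their median was the higher one by 2.87 to 2.65. The shared loci of all 4 lists, 131 in number and with a median of 3.44, have a single counterpart in the set. Each locus also had a span, from the first to the last base of its Δflo8 peaks over all lists. The median span was 187 bp for the slow library alone and 196 bp for fast replicate 1 alone. It was 232 bp for both fast libraries and the slow one. A span over more lists is wider at least partly by construction.

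By rank, peaks at Δflo8-only loci were scarce at the top of the fast and slow lists, and the switchback list had 1, in band 2. They made up 4 of 116 peaks in band 1 of fast replicate 1 (3.45%) and 47 of 115 in band 4 (40.9%). In fast replicate 2 the shares in bands 1 and 4 were 3.37% and 27.0%. In the slow list they were 7.81% in band 1 and 27.6%, 32.3% and 29.1% in bands 2 to 4. The share thus went up band by band in both fast replicates and levelled off from band 2 in the slow list. Peaks were also narrow, with median widths of 204, 195 and 196 bp in the 3 lists, where the narrowest peak was 181, 182 and 174 bp. At shared loci the median widths were 255, 243 and 243 bp.

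Interior Δflo8 loci were then ordered by the number of WT lists that held them, which places the Δflo8-only loci at 0. The median fold, averaged over the Δflo8 lists that held a locus, was 2.85 at the 165 loci with no WT list (quartiles 2.71 and 3.03), 2.90 at the 66 with 1 WT list (2.72 and 3.09) and 3.17 at the 113 with all 6 (2.90 and 3.54). The share held by the switchback library was 0.606%, 7.58%, 20.0%, 34.0%, 41.0%, 47.2% and 61.1% from 0 to 6 WT lists. The median span of the Δflo8 peaks at a locus was 203 bp at 0 WT lists, 223 bp at 1 and 352 bp at 6. The share held by more than 1 Δflo8 list was 55.8% at 0 WT lists, 72.7% at 1 and 93.8% at 6. The span therefore differs at least partly by construction. In fold, span and switchback presence the Δflo8-only loci thus stood next to the loci of 1 WT list, and the 3 measures differed most from the loci of all 6.

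**Figure D3:**
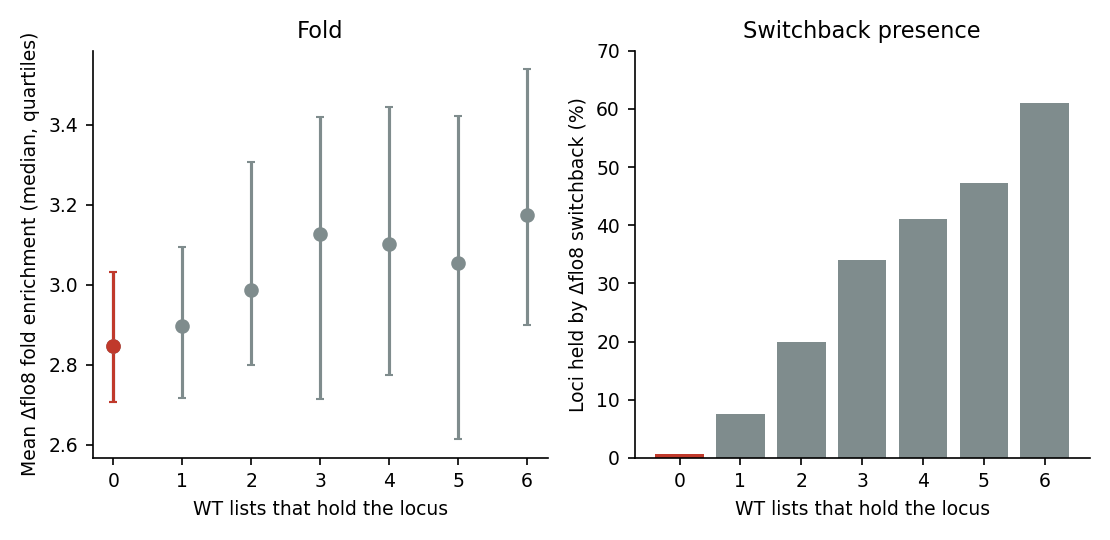
Interior Δflo8 loci by the number of WT lists that hold them (0 to 6), with the Δflo8-only loci in red. Left, the median over loci of the mean Δflo8 fold enrichment with quartiles (the axis does not start at 0), from 2.85 at 0 to 3.17 at 6 WT lists; right, the share held by the Δflo8 switchback list, from 0.606% to 61.1%.

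The WT lists differed in how close they came to the Δflo8-only loci. Of the 66 loci that a single WT list held, 25 were in WT switchback replicate 1, 23 in WT slow replicate 2 and 12 in WT switchback replicate 2. The short lists held few of them, with 3 each in WT slow replicate 1 and WT fast replicate 2 and 0 in WT fast replicate 1. Leaving out a WT library moves its own loci into the set, which grew to 190 without WT switchback replicate 1 and to 188 without WT slow replicate 2, and stayed at 165 without WT fast replicate 1.

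Reproducibility was examined where the rule did not use it. The comparison with shared loci is not wholly like for like. These are merged over the wider WT peaks, so Δflo8 peaks that do not overlap each other can count as the same locus. Of the 64 loci chosen from fast replicate 2 and absent from all WT lists, 61 were also found in fast replicate 1 (95.3%, 86.9 to 99.0), against 249 of 255 shared loci (97.6%, 94.9 to 99.1). Of the 121 chosen from fast replicate 1, 61 were found in fast replicate 2 (50.4%, 41.2 to 59.6), while 249 of 290 shared loci were (85.9%, 81.3 to 89.7). In bands 2 to 4 of fast replicate 1, fast replicate 2 recovered 57 of 117 Δflo8-only loci (48.7%, 39.4 to 58.1) and 144 of 185 shared loci (77.8%, 71.2 to 83.6), with intervals that did not overlap. By band, the share of the Δflo8-only loci was 24 of 26 in band 2 (92.3%, 74.9 to 99.1), 23 of 44 in band 3 (52.3%, 36.7 to 67.5) and 10 of 47 in band 4 (21.3%, 10.7 to 35.7). For shared loci the shares were 95.1% (88.0 to 98.7), 74.1% (61.0 to 84.7) and 51.1% (35.8 to 66.3). The share of the Δflo8-only loci was the lower one in each of these bands. The intervals overlapped in bands 2 and 3 and lay just apart in band 4. The slow library held 53 of the 64 loci of fast replicate 2 (82.8%, 71.3 to 91.1), against 249 of 255 shared loci (97.6%, 94.9 to 99.1). It held 80 of the 121 loci of fast replicate 1 (66.1%, 57.0 to 74.5), against 272 of 290 shared loci (93.8%, 90.4 to 96.3). Both shares were below those of shared loci, with intervals that did not overlap. Over all bands of fast replicate 1 the Δflo8-only loci also ranked lower, with a median of 316 against 171. In band 2 of fast replicate 1 the slow library held 25 of 26 Δflo8-only and 81 of 82 shared loci. In band 3 it held 79.5% and 87.9%, with overlapping intervals. In band 4 it held 34.0% (20.9 to 49.3) and 77.8% (62.9 to 88.8), and these intervals did not overlap. There the Δflo8-only loci had the better median rank, 395 against 410. From fast replicate 2 the slow library held 16 of 16 and 67 of 67 in band 2. In bands 3 and 4 it held 76.2% and 79.2%, against 98.2% and 90.4%, with overlapping intervals.

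The position of the summit, the point of highest signal in a peak, was close between libraries. Lists hold the same locus only where their peaks were merged, and at Δflo8-only loci these had median widths of 195 to 204 bp. The gap is therefore limited by the merging and by the peak width. At the 61 Δflo8-only loci of both fast replicates the summits lay a median of 14 bp apart and at most 87 bp, with 59 within 50 bp (96.7%). Between fast replicate 1 and slow the median was 13.5 bp over 80 loci, all within 50 bp, and between fast replicate 2 and slow it was 11 bp over 53 loci, with 51 within 50 bp. At shared loci the medians were 15, 15.5 and 17 bp, with 94.4%, 89.3% and 89.2% within 50 bp. Some gaps were above 1 kb where a wide locus held several peaks. At Δflo8-only loci every list had a single peak per locus, in 309 of 309 cases.

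Fold enrichment was compared at the same loci. Fast replicate 1 was higher than fast replicate 2 at 54 of the 61 (88.5%), and the ratio of fast replicate 2 to fast replicate 1 had a median of −0.15 on the log2 scale, with an SD of 0.13 over loci. The same direction held at 228 of 249 shared loci (91.6%). Across the 61 loci Pearson's r between the replicates was 0.58 and Spearman's rho 0.54. At 249 shared loci, which spanned a wider range of fold, r was 0.83 and rho 0.83. These correlations describe loci within 2 libraries, and loci are not replicates.

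The slow stage was set against both fast replicates at the 51 Δflo8-only loci held by all 3 libraries. The slow fold was above both fast folds at 14 (27.5%), below both at 15 (29.4%) and between them at 22. Over all 294 interior loci held by these libraries it was above both at 31% and below both at 27.6%, so that the Δflo8-only loci were close to the background in both directions. The medians over the 51 loci were 3.20 and 2.85 in the fast replicates and 2.99 at the slow stage, which thus lay between the replicates. The widest departures, chosen after their values were seen, were chr1:2694605-2694875, with 3.41 and 2.85 in the fast replicates and 2.31 in the slow library, and chr2:945387-945622, described above, in the other direction. With 1 slow library no test of the stage was possible.

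**Figure D4:**
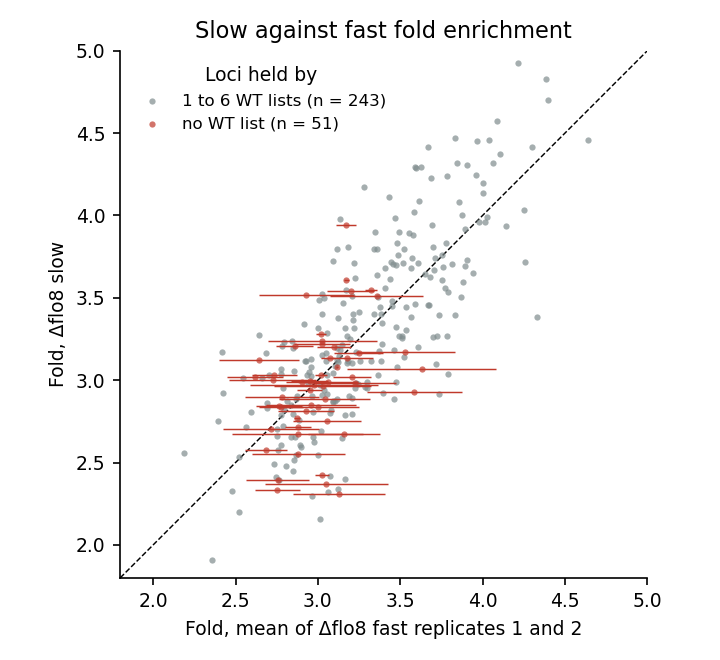
Fold enrichment at the slow stage against the mean of the 2 fast Δflo8 replicates, for the 51 Δflo8-only loci (red, horizontal lines join the 2 replicates) and 243 shared loci (grey) held by all 3 libraries. The dashed line marks equal values; 14 red loci lie above both replicates, 15 below both and 22 between.

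The distance to WT peaks was measured next. The median gap to the nearest peak of any WT list was 6537 bp (quartiles 2612 and 12250, range 15 to 42205). The gap was under 500 bp at 6 loci, under 1000 bp at 17 (10.3%), under 5000 bp at 73 (44.2%) and over 20000 bp at 21 (12.7%). Shared loci had a median of 6045 bp to the nearest WT peak of another locus (quartiles 2263 and 11303), with 12.3% under 1000 bp. Most Δflo8-only loci were thus several WT peak widths away from a WT peak, about as far as shared loci were from their next WT neighbour. The rule bars overlap with a WT peak, and distances of random positions were not computed. Whether any of the loci were flanks of WT peaks was not tested. The nearest WT peak belonged to a locus that Δflo8 also held at 139 of the 165 (84.2%, 77.8 to 89.4). The remaining 26 (15.8%, 10.6 to 22.2) were nearest to a WT-only locus, and WT-only loci were 24.0% of the interior loci with a WT peak.

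**Figure D5:**
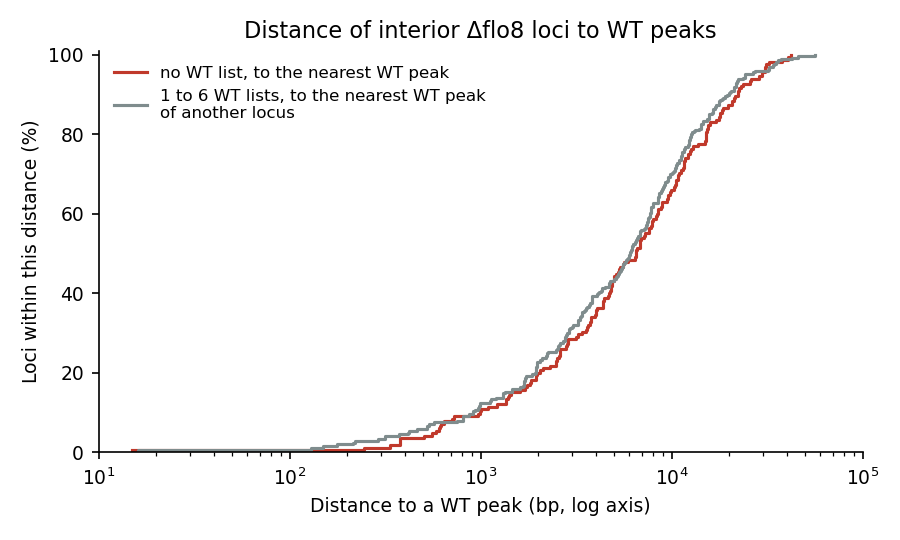
Cumulative share of interior Δflo8 loci by distance to a WT peak (bp, log axis), for Δflo8-only loci (to the nearest WT peak) and shared loci (to the nearest WT peak of another locus, from the edge of the merged locus). The curves run close together, with medians of 6537 and 6045 bp.

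The nearest 3 were all loci of the fast stage without the slow library. They were chr3:984414-984600 (15 bp, fold 2.78 in fast replicate 1), chr4:1176239-1176432 (244 bp, fold 2.63 in fast replicate 1) and chr3:207738-207952 (335 bp, folds of 2.70 and 2.65 in the fast replicates). The WT neighbours were held by 5, 4 and 5 WT lists. The 3 farthest lay on chromosome 1. The locus at chr1:1898350-1898582, 42205 bp from a WT peak, was held by both fast libraries and the slow one with folds of 3.33, 3.09 and 3.02. Those at chr1:2591697-2591881 (40818 bp) and chr1:1902693-1902867 (37920 bp) were of the slow library alone, with folds of 2.33 and 2.46. Distance from the WT peaks and strength in Δflo8 therefore did not go together in these cases.

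Distances to single WT lists were larger for the 3 short lists than for the 3 long ones. The median was 8316 bp for WT slow replicate 2 (382 peaks), 9591 bp for WT switchback replicate 1 (356) and 8438 bp for WT switchback replicate 2 (346). It was 16974 bp for WT fast replicate 1 (219 peaks), 15099 bp for WT slow replicate 1 (203) and 19214 bp for WT fast replicate 2 (199). Within the long and within the short lists, the distance did not follow the number of peaks.

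The loci were found on all 4 chromosomes. Chromosome 1 held 56, chromosome 2 held 42, chromosome 3 held 44 and chromosome 4 held 23, or 20.8, 19.1, 21.4 and 14.2 per Mb of interior sequence. As a share of the interior Δflo8 loci of a chromosome they were 35.0% (27.6 to 42.9), 34.7% (26.3 to 43.9), 35.5% (27.1 to 44.6) and 21.1% (13.9 to 30.0). The share was lowest on chromosome 4, which had the most Δflo8 loci per Mb (67.3, against 55.0 to 60.3), and its interval overlapped those of the other chromosomes. Of the 51 loci held by both fast libraries and the slow one, 15, 14, 15 and 7 were on chromosomes 1 to 4.

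Neighbouring loci of the set were a median of 33363 bp apart (range 716 to 306946). Within 5 kb of each other lay 29 loci, in 13 pairs and 1 group of 3. The group of 3 spanned chr1:2159843-2163694. Its first locus, at chr1:2159843-2160058, was held by both fast libraries and the slow one with folds of 3.00, 2.81 and 2.99, and the others, at chr1:2162578-2162783 and chr1:2163509-2163694, by the slow library alone with 2.54 and 2.80. Of the pairs, chr1:178711-178915 (folds of 2.88 and 2.51 in the fast replicates) and chr1:179632-179812 (2.44 in fast replicate 1) were the closest together. A further pair was formed by chr1:143278-143494 (3.07 in fast replicate 1 and 2.71 at the slow stage) and chr1:147633-147845 (3.34, 3.06 and 3.54 in the fast replicates and at the slow stage). The locus of all 4 lists and its neighbour, described above, form another such pair. In 11 of the 14 groups the loci were held by unequal numbers of Δflo8 lists, and in 3 by equal numbers. Among these 3, the pair at chr1:1013025-1015757 joined a locus of fast replicate 1 alone with a locus of the slow library alone. Grouping was not counted for shared loci, so no background stands beside these counts.

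Overlap was also counted with the input lists of fixed chromatin decrosslinked before extraction, 71 regions in the WT input and 80 in that of Δflo8. How these regions were called is not given in the methods, so how well they map background is unknown. A Δflo8-only locus overlapped an input region in 2 cases (1.21%, 0.147 to 4.31), against 2.92% of all interior Δflo8 loci. At chr2:316926-317167 the fold was 3.37 and 2.59 in the fast replicates and 2.97 at the slow stage. At chr3:1366414-1366674 it was 3.42, 2.68 and 2.37. Both were higher in fast replicate 1 than in the other libraries. The median distance of the set to an input region was 39338 bp.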

How the data were processed

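The deposited peak lists of 10 FAIRE and 2 input libraries were used. Per the methods and labels, the authors mapped paired-end reads with BWA 0.7.13 to the CBS7435 genome, handled them with SAMtools 1.3, removed reads of low mapping quality and called peaks with MACS2 against input on pooled replicates. Each deposited list holds 1 library, so this description does not cover the files in full. The deposited score of a WT peak is a caller's score with no p-value beside it, and that of an input region runs up to 1. In the Δflo8 lists the authors give the fold enrichment over the control (a ratio), the −log10 p-value, the −log10 q-value and the summit offset, and the score is 10 times the −log10 p-value.

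Starts were counted from 1. Ranks are by score (WT) or −log10 p (Δflo8) among nuclear peaks, and the mitochondrial peak of each Δflo8 list was left out. A locus took the strongest peak of each list. Distances are bases between edges. No test was made. The rule used presence in the lists, and the slow and switchback stages had 1 Δflo8 library each. Summits, recovery and input overlap were outside the rule, but loci are not replicates. The p-values that the lists carry were used to rank and filter alone. Named loci were those of all 4 lists, the 6 of 3 lists and the 2 of each other combination with the highest mean fold, the nearest to and farthest from WT peaks, those at the thresholds, the 3 largest groups within 5 kb (ties by position), and those over input regions. The loci, lists and rules were chosen with earlier results of these data known. Alternatives were other subsets of peaks, merging within 200 bp, a common width of 500 bp, a WT-free margin of 1000 bp, other end margins and leaving out each library. The interval code was tested on simulated data. Python 3.11.15, pandas 2.3.3 and scipy 1.17.1 were used.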

Additional observations from a re-analysis of the deposited data

How the results depend on the processing

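The count of 165 Δflo8-only loci depended most on how many peaks each list gave. With the 149 strongest nuclear peaks of each list it was 99, of which 22 overlapped the 165 and 77 were loci with a WT peak in the full lists. Under that setting 22 loci were held by all 4 Δflo8 lists, 14 by the slow list alone, and the median distance to a WT peak was 15571 bp and the median fold 3.45. With the higher-scoring 50% of each list the count was 145, of which 61 overlapped the 165, with 14 loci in all 4 lists, a median distance of 12627 bp and a median fold of 3.30. Both settings raise the fold and the distance at least partly by construction, since weaker peaks are removed. The number of loci in all 4 lists was 4 with peaks over input regions removed (where the share over input regions is 0% by construction), 2 with every peak set to 500 bp and 0 with no WT peak allowed within 1000 bp. Leaving out each library in turn gave 124 to 190 loci, 39.6% to 60.0% held by more than 1 list, 1 to 51 in all the Δflo8 lists left, 41 to 70 in the slow list alone, a median distance of 6434.5 to 6799.5 bp, a median fold of 2.84 to 2.89 and 1.05% to 1.61% over input regions. The remaining values stayed within 1.5 times the count or within the interval of the main value. No paired analysis was possible because no result came from a test.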
